A study of Caenorhabditis elegans with 2 samples.

Results

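The col genes of Caenorhabditis elegans encode cuticle collagens and a few related collagens, and 156 of the 19973 protein-coding genes of the annotation had a symbol that starts with col-. All 156 were taken as members, with no value from the peak lists used to choose them. Their binding by RBM-26 was read from chromatin immunoprecipitation followed by sequencing (ChIP-seq) of whole young adult worms at 66 hours, grown from first-stage larvae that had been starved after bleaching. The strain, OP801, carried the integrated transgene wgIs801, in which RBM-26 (B0336.3) is fused to TY1 EGFP 3xFLAG, with unc-119(+) in an unc-119(tm4063) mutant background. Chromatin was sonicated to a size range of 200-800 bp and precipitated with an antibody against GFP, from 2 biological replicates that form a single group.

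No contrast between conditions could be made, and the only measure of error was the difference between the 2 replicates. The transgene is an added tagged copy, and whole animals pool the epidermis, which makes the cuticle, with every other tissue, so the cells behind a peak cannot be told apart. A control experiment is named in the labels as possible and was not analysed here. The lists hold no expression values, so neither the tag nor the stage could be checked against marker genes.

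The worm cuticle is an extracellular matrix that the epidermis secretes anew at each moult. Cuticle collagens are short proteins built mainly of Gly-X-Y triplets, in which glycine recurs at a fixed spacing and proline is frequent at the other positions, and they are trimmed, hydroxylated and cross-linked into fibres. Their genes are transcribed in waves that follow the moulting cycle, and some, col-19 among them, are used mainly in the adult. RBM-26 is an RNA-binding protein, so a ChIP-seq peak at a gene records chromatin recovered with the tagged protein and need not mean direct contact with DNA.

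The family matched its label in sequence. Of the 156 genes, 155 encoded at least 10 Gly-X-Y triplets in tracts of 3 or more, with a median of 51 triplets and a highest value of 198 in col-135, whereas col-17 had 0 in its annotated reading frame. The genes were short, with a median length of 1220 bp, against 2027 bp over all protein-coding genes. Their coding sequence was GC-rich, with a median of 55.1% (quartiles 51.9 to 58.6%), against 42.5% (39.5 to 46.0%) over all genes.

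The authors deposited a conservative list of peaks that passed a threshold on the irreproducible discovery rate (IDR) between replicates, a wider thresholded list, a thresholded list for each replicate and longer ranked lists without that threshold. Read numbers were not stated for either library, which leaves the depth unknown. Merging the overlapping rows of a list left 2416 regions in the conservative list, 2635 in the wider list, 1950 in the list of replicate 1 and 1546 in that of replicate 2. The ranked lists held 17826 regions between replicates, 20275 in replicate 1 and 16104 in replicate 2. Replicate 1 therefore had more regions than replicate 2 in both kinds of list, which touches every count below. The signal of a region is the authors' value for its highest peak, on a scale that is not stated, so a signal ranks regions within its own list, and values of the replicates are given side by side without a ratio.

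Few col genes had a thresholded RBM-26 peak near the start. Their share was above that of genes at large in replicate 1 and below it in replicate 2. It was also below in the conservative and wider lists, which draw on the same 2 replicates. A gene was called when its start was the nearest protein-coding start to a summit and lay within 1000 bp of it. In the conservative list 7 of 156 col genes were called, or 4.49% (95% Wilson interval 2.19 to 8.97%), against 1331 of all protein-coding genes, a background of 6.66%. In the wider list 10 col genes were called, or 6.41% (3.52 to 11.4%), against a background of 7.28%. In replicate 1 again 10 were called, or 6.41% (3.52 to 11.4%), against a background of 5.39%, and in replicate 2 only 2 were called, or 1.28% (0.352 to 4.55%), against a background of 4.43%. The intervals treat genes as independent, which neighbouring genes are not, and each of the first 3 holds its background, as does that of replicate 2 by a small margin.

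The ranked lists placed weaker summits near many more col genes. A summit between replicates lay within 1000 bp of 55 col starts, or 35.3% (28.2 to 43.0%), against a background of 34.4%. In replicate 1 the count was 72, or 46.2% (38.5 to 54.0%), against a background of 37.5%, and in replicate 2 it was 48, or 30.8% (24.1 to 38.4%), against a background of 34.5%. The col genes thus stood above the background in replicate 1 and below it in replicate 2, and the direction did not hold across replicates. Of the 156 col genes, 43 had a ranked summit within 1000 bp in both replicates, 29 in replicate 1 only and 5 in replicate 2 only. Of all 19973 genes the counts were 5664, 1819 and 1233. No ranked list had a summit within 1000 bp of the start of 76 col genes. That count was not made for all genes, so nothing particular to col genes is read from it.

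**Figure D1:**
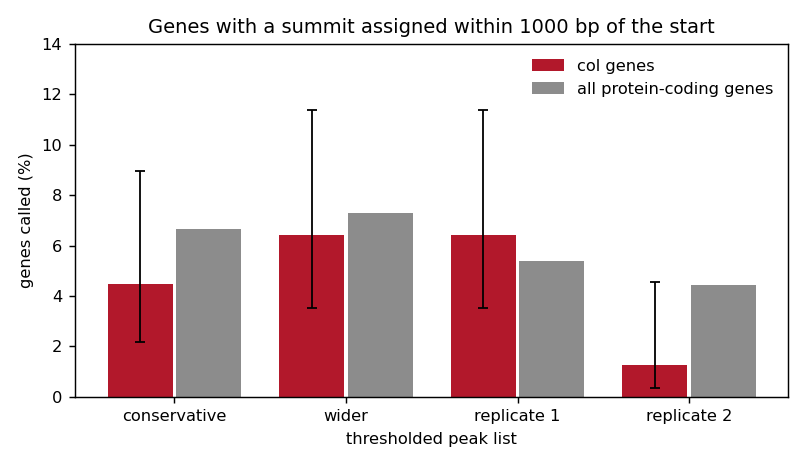
Share of genes called in percent, by thresholded peak list, for the 156 col genes and for all protein-coding genes, with 95% Wilson intervals over genes on the col bars. The col share is 4.49% in the conservative list, against 6.66% of all genes. It is 6.41% in replicate 1, against 5.39%, and 1.28% in replicate 2, against 4.43%.

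The distance from a start to the nearest summit gave a like picture. In the conservative list the median was 21514 bp for col genes (quartiles 7410 to 41739 bp), against 19087 bp for all genes (6088 to 43983 bp). In the ranked list between replicates it was 3047 bp for col genes, against 3515 bp for all genes. In replicate 1 it was 1266 bp for col genes, against 2411 bp, and in replicate 2 it was 3083 bp, against 3060 bp. The highest signal within 1000 bp in the conservative list had a median of 155 for col genes and 156 for all genes.

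The summits assigned to col genes lay mostly inside the gene, whereas those of all genes were split between gene and upstream sequence. Of the 7 conservative summits of called col genes, 5 (71.4%) lay inside the gene and 2 (28.6%) upstream, against 406 (29.9%) inside and 890 (65.5%) upstream of the 1358 summits of all called genes. The ranked list between replicates called 50 col genes with 55 summits, of which 40 (72.7%) were inside the gene, against 49.0% for all genes. In replicate 1 the share inside was 79.5% of 73 col summits, against 51.8% for all genes, and in replicate 2 it was 70.6% of 51, against 45.2%. The direction was the same in both replicates, but the shorter length and higher GC of col genes go with it, and their part in it was not tested.

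Within the gene, the median position of col summits was further from the start than that over all genes. In the ranked list between replicates the median position of summits inside col genes was 537 bp from the start (quartiles 408 to 659 bp), against 377 bp (151 to 675 bp) for all genes. The median was 585 bp, against 401 bp, in replicate 1 and 444 bp, against 367 bp, in replicate 2. The part of gene length and structure in this was not tested. The bin from 400 to 600 bp held 17 col summits, or 30.9%, against 8.90% for all genes. The 200 bp before the start held 2 col summits, or 3.64%, against 1341 of 7041 summits of all genes, and the first 200 bp of the gene held 1, or 1.82%, against 15.6%. The commonest row of the conservative list was 620 bp wide with its summit at the exact centre (1446 of 3045 rows), as were 5 of the 7 called col regions, so a summit of this kind need not mark a position to the base.

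**Figure D2:**
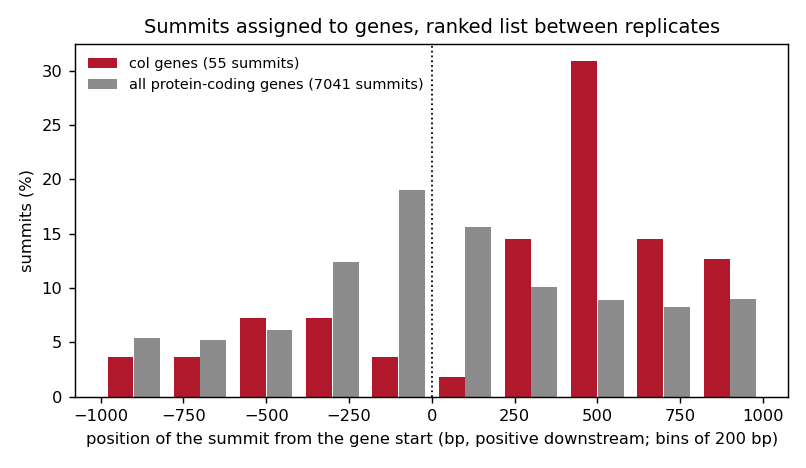
Position of the summits of called genes in bp from the gene start, in bins of 200 bp, as a percent of summits in the ranked list between replicates. The bin from 400 to 600 bp holds 30.9% of col summits, against 8.90% of summits of all genes, and the first 200 bp of the gene hold 1.82%, against 15.6%.

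Many of these summits fell in the part of the gene that codes for the collagen repeat. Coding exons held 34 of the 55 col summits of the ranked list between replicates, or 61.8%, against 26.4% for all genes. The coding share of the gene bodies was not set beside this, so the part of gene structure in it was not tested. Of the 40 summits inside col genes, 24 (60.0%) were on coding bases of Gly-X-Y triplets. Such bases make up 31.4% of the bodies of all 156 col genes. The summits came only from called genes, within 1000 bp of the start, so these shares are not over like sequence. The count of summits on Gly-X-Y bases was 38 of 58 inside col genes (65.5%) in replicate 1 and 17 of 36 (47.2%) in replicate 2.

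The bases at 6 conservative summits of called col genes are printed to show this, 4 from coding exons, 1 from an intron with a tRNA gene and 1 from upstream of the start. Each runs from 50 bases before the summit to 50 after it and was read from the RefSeq genome WBcel235, which is ce11, on the sense strand of the gene. Capitals mark GGNCCN, the 6 letters with which a glycine codon is followed by a proline codon, and in col-85 they mark the bases of a tRNA gene. In col-140, at chrV:5836186-5836286 on the minus strand, every base codes for Gly-X-Y triplets. In col-184, at chrX:13470120-13470220 on the plus strand, 92 do, and in col-143, at chrV:6835924-6836024 on the plus strand, 81 do. In col-122, at chrIV:9563725-9563825 on the plus strand, 23 do. The col-85 window is chrII:12494679-12494779 and that of col-38 is chrII:8569457-8569557, both on the minus strand, and neither holds a coding base of its gene.
col-140: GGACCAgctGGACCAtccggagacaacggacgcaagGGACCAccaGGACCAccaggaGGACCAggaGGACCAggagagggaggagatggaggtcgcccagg
col-184: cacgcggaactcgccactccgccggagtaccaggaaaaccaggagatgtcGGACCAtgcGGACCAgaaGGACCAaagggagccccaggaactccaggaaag
col-143: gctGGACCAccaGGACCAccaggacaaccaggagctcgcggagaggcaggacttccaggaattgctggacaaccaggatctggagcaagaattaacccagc
col-122: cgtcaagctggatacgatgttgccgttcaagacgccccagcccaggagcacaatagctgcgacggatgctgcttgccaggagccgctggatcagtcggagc
col-85: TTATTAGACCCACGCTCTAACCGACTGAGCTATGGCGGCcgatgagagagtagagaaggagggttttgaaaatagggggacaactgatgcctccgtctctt
col-38: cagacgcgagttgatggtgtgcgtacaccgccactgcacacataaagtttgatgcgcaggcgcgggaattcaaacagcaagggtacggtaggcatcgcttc

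The printed windows of col-140, col-184 and col-143 hold 6, 3 and 2 matches to GGNCCN, and the other 3 hold 0. Searched on both strands, GGNCCN was present in the same window at 3 of the 7 conservative summits of called col genes (42.9%), against 9.73% of all 2416 conservative regions. In the ranked list between replicates it was present at 24 of the 40 summits inside col genes (60.0%), against 9.98% of the summits inside all genes. TGATAA, a form of the site of GATA factors, was present at 0 of the 7 conservative col summits, against 7.20% of conservative regions, and at 0 of the 40, against 7.22% of summits inside all genes. The letters GGNCCN are frequent in any Gly-X-Y reading frame, so their share describes collagen coding sequence. The col windows are few and those inside the gene are GC-rich, so no lack of GATA sites is read from the TGATAA counts.

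Summits inside col genes were GC-rich, as the coding sequence of these genes is. The 40 summits inside col genes had a median GC of 60.9% over this window (quartiles 54.2 to 64.4%), against 41.6% (35.6 to 47.5%) for all genes in the ranked list between replicates. In replicate 1 the median was 58.4% for col genes, against 43.6% for all genes, and in replicate 2 it was 59.9%, against 39.6%. The 14 col summits upstream of the start had a median of 45.5%, against 41.6% for all genes, but the direction was opposite within replicates. There it was 39.6%, against 43.6%, in replicate 1 and 37.1%, against 39.6%, in replicate 2.

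**Figure D3:**
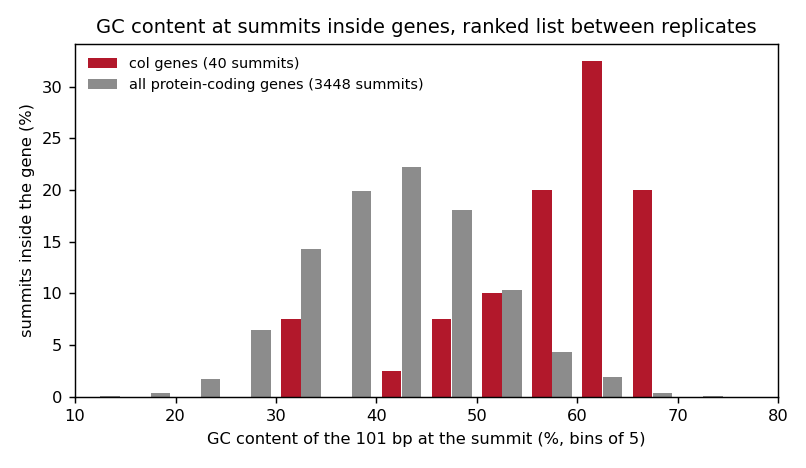
GC content in percent, in bins of 5, within 50 bases of summits inside genes in the ranked list between replicates, as a percent of summits, for col genes and for all genes. The 40 summits inside col genes have a median of 60.9%, against 41.6% for summits inside all genes.

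A summit anywhere inside the gene body was found in 7 col genes of the conservative list, or 4.49%, against a background of 4.94%. In the ranked list between replicates it was found in 60 col genes, or 38.5% (31.2 to 46.3%), against a background of 31.9%. In replicate 1 it was found in 79, or 50.6% (42.9 to 58.4%), against a background of 36.7%, and in replicate 2 in 47, or 30.1% (23.5 to 37.7%), against a background of 30.7%. The excess of col genes was thus seen in replicate 1 and not in replicate 2. Counting a summit inside the gene or within 500 bp of either end gave 10 col genes in the conservative list, or 6.41% (3.52 to 11.4%), against a background of 12.6%. That window grows with gene length, and col genes are shorter than genes at large. The part of length in this share was not tested.

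The share with a summit inside the gene moved with coding GC among other genes, so it was also read within bins of coding GC. Among genes of 50 to 55% GC, 45.1% of 51 col genes had a summit inside in replicate 1, against 54.7% of 1449 other genes, and 21.6%, against 39.4%, in replicate 2. Among genes of 55% GC or more, 58.0% of 81 col genes had one in replicate 1, against 46.6% of 232 other genes, and 38.3%, against 30.2%, in replicate 2. In the bin of 45 to 50% the share was 42.9% of 21 col genes, against 56.7% of other genes, in replicate 1 and 23.8%, against 42.9%, in replicate 2. Col genes were thus below other genes of like GC in the bins from 45 to 55% and above them in the highest, in both replicates. The order of median gene length was the same as that of the shares in all 3 bins. It was 1693 bp for col genes, against 2287 bp for other genes, at 45 to 50%, then 1249 bp, against 1413 bp, at 50 to 55% and 1115 bp, against 890 bp, at 55% or more. The part of length in these shares was not tested.

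**Figure D4:**
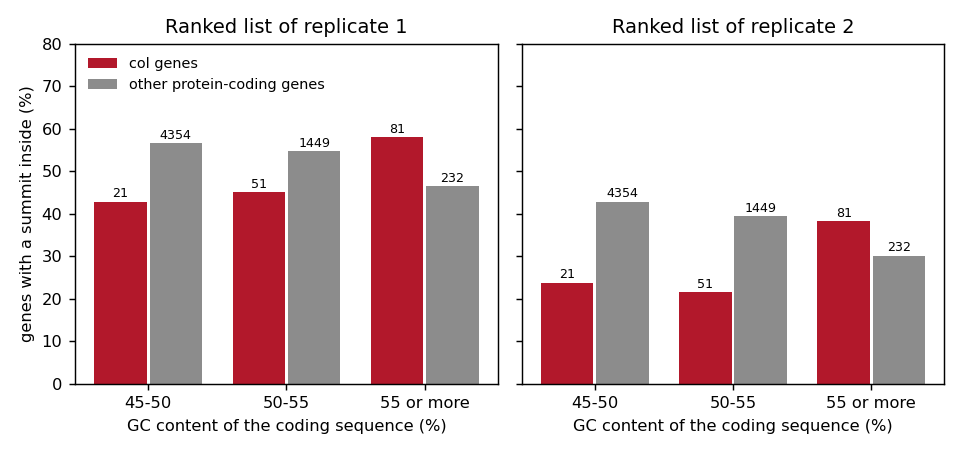
Percent of genes with a ranked summit inside the gene, by bins of coding GC in percent, for col genes and for other protein-coding genes in each replicate, with the number of genes above each bar. In the bin of 55% or more, col genes reach 58.0% in replicate 1, against 46.6% of other genes, and 38.3% in replicate 2, against 30.2%. In the 2 lower bins shown they lie under other genes.

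Among col genes, those with a ranked summit inside had a median coding GC of 56.4%, against 54.3% for those without one, and a median of 51 triplets in both groups. The same order of GC was seen in replicate 1 (56.1%, against 54.3%) and in replicate 2 (56.5%, against 54.4%).

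Of the 7 called col genes, the strongest was col-63 (WBGene00000639). Its region, chrI:8245467-8245793, had a signal of 283, rank 220 of 2416, with 152 in replicate 1 and 127 in replicate 2. It stood at percentile 98.1 of the ranked list in replicate 2, higher still in replicate 1, and passed the threshold in both, which means that it overlapped a region of each replicate's thresholded list. The summit lay 659 bp upstream of col-63, in a non-coding exon part of the tandem neighbour ceh-8, a homeobox gene, 117 bp from the end of that gene, and inside the non-coding gene ZK265.11. Which of the genes the region belongs to cannot be told apart.

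col-85 (WBGene00000660) came next, with a signal of 179 at chrII:12494610-12494870, rank 778, and 93.4 in replicate 1 and 83.7 in replicate 2. Its summit lay 366 bp into the gene, in an intron, and 12 bp from the tRNA gene WBGene00014524 (chrII:12494741-12494814), which runs on the other strand in that intron, as the capitals above show. Of the 36-base words in the region, 89.4% were unique in the genome. A tRNA, snoRNA, snRNA or miRNA gene lay within 250 bp of the summit in 257 of 2416 conservative regions (10.6%), and in 1 of the 7 called col regions.

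col-38 (WBGene00000615) had a signal of 156 at chrII:8569197-8569816, rank 1063, with 80.9 in replicate 1 and 77.1 in replicate 2. The summit lay 419 bp upstream, in the 838 bp between the starts of col-38 and rpl-5, a gene for a ribosomal protein that runs the other way, and inside the non-coding genes F54C9.16 and F54C9.17. It was 1 bp nearer to col-38 than to rpl-5, which alone made it a col-38 call. In each replicate the summit was nearer to rpl-5 (450 bp from col-38 in replicate 1 and 443 bp in replicate 2), so col-38 was called in the conservative list and the wider list but in neither replicate.

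The other 4 called genes had summits in coding exons, and none passed the threshold in both replicates. col-140 (WBGene00000713) had a signal of 155 at chrV:5835926-5836545, rank 1082, 598 bp into the gene, with 111 in replicate 1, where it passed, and 42.7 in replicate 2, where it did not. col-184 (WBGene00000757) had 116 at chrX:13469860-13470479, rank 1796, with 62.2 in replicate 1 and 59.2 in replicate 2, and passed in neither. col-143 (WBGene00000716) had 94.4 at chrV:6835664-6836283, rank 2299, with 41.6 in replicate 1 and 57.9 in replicate 2, and passed in neither. col-122 (WBGene00000696) had 77.6 at chrIV:9563465-9564084, rank 2392, with 46.8 in replicate 1 and 51.6 in replicate 2, passed in neither, and was called in the conservative list only. The col-122 summit also lay in an intron of lron-14, on the opposite strand, so the 2 genes cannot be told apart there. In percentiles of each ranked list, col-140 stood at 97.4 in replicate 1 and 77.1 in replicate 2, the widest gap of the 7, and col-122 at 83.6 in both.

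**Figure D5:**
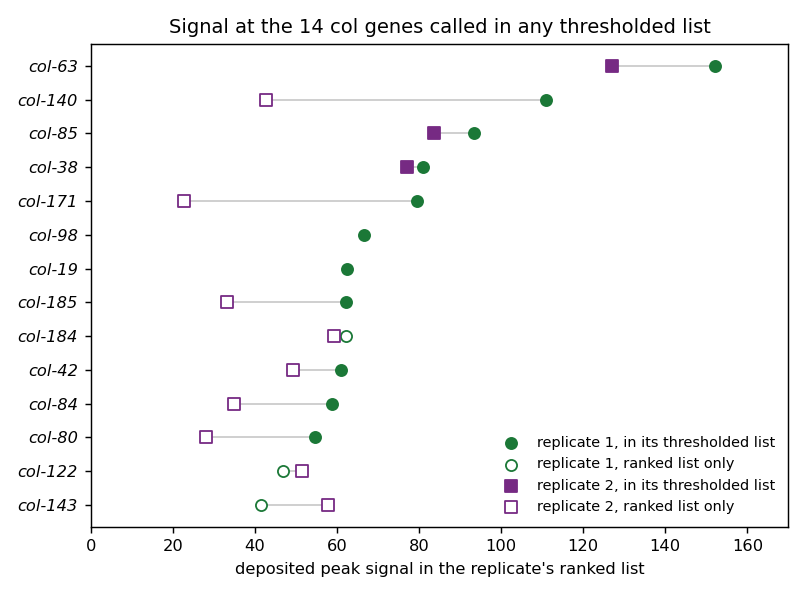
Deposited peak signal (horizontal axis, scale not stated) in the ranked list of each replicate at the 14 col genes called in any thresholded list, 1 gene a row, with filled symbols where a region of that replicate's thresholded list overlapped it. col-63 is highest in both replicates at 152 and 127, while col-140 has 111 in replicate 1 and 42.7, as an open symbol, in replicate 2.

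A further 7 col genes were called in another thresholded list, for 14 in all, and only col-63 and col-85 were called in every list. col-171 had a signal of 107 in the wider list, 545 bp into the gene in a coding exon, with 79.6 in replicate 1 (percentile 94.3) and 22.7 in replicate 2 (percentile 44.7). The col-171 summit also lay inside the non-coding gene T10E10.8, on the opposite strand. col-84 had 99.5, with 58.8 in replicate 1 and 34.9 in replicate 2, and col-80 had 67.0, with 54.6 in replicate 1 and 28.2 in replicate 2. The 54.6 at col-80 is the highest overlapping ranked peak, 850 bp into the gene, and the call in replicate 1 rests on a peak of 48.3 at 641 bp. The summits of col-84 and col-80 also lay in introns of npp-3 and dph-2, which run on the opposite strand. col-185 had 93.0, with 62.3 in replicate 1 and 33.3 in replicate 2, but its summit, 930 bp upstream, was inside the tRNA gene WBGene00014413, and 43.9% of the region's 36-base words were unique. These 4 were called in the wider list and in replicate 1.

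The remaining 3 were called in replicate 1 only. col-19, the adult-stage collagen, had a signal of 62.4 in replicate 1 with the summit 497 bp into the gene in a coding exon, and no ranked region of replicate 2 overlapped it. In the ranked list between replicates it had a signal of 94.9, with the summit 474 bp into the gene. The replicate 1 summit also lay in an intron of ZK1193.2 on the opposite strand. col-98 had 66.7 in replicate 1, 824 bp into the gene, and no overlapping region in replicate 2. col-42 had 61.1 in replicate 1, 509 bp into the gene, and 49.3 in replicate 2. Only 2 col genes were called in both replicates, which is 2 of 10 in the first list and 2 of 2 in the second, against 60.9% and 74.0% for all genes. Genes called only in the list of replicate 1 were picked by it, so their higher standing there is a description.

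Some genes fell just outside the rule. col-106 had a conservative summit 1144 bp from the start and 254 bp past the end of the gene, with a signal of 124, and passed in replicate 2 only. col-113 had one 1416 bp into the gene in a coding exon, with a signal of 106, and passed in neither replicate. col-94 had one of 392, the highest of these, 1780 bp upstream and 26 bp from the snRNA gene R07E5.16, and passed in both. col-72 held a conservative summit of 129 in an intron, inside the tRNA gene WBGene00023160, where the nearest protein-coding start was that of W09G10.9, 254 bp away. col-153 had one of 122 past its end, 87 bp from the start of F17C11.4, in whose coding exon it lay.

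Among the genes called in no thresholded list and without a conservative summit inside or within 500 bp of an end, the highest ranked signals between replicates were 90.8 at col-20, 85.4 at col-124, 77.8 at col-83, 76.7 at col-103 and 76.6 at col-71. col-20 had 70.1 in replicate 1 and 24.3 in replicate 2, while col-83 had 34.0 in replicate 1 and 46.8 in replicate 2, each on its own list's scale. In percentiles of those lists, col-20 stood at 92.4 and 48.8 and col-83 at 71.3 and 80.4, so the replicate with the higher standing varied. The next were 75.5 at col-119, 72.9 at col-95, 68.7 at col-2, 65.2 at col-51 and 63.4 at col-96. The last condition leaves out col-72, described above, whose ranked signal within 1000 bp of its start was 72.2. The summit at col-71 was 267 bp from its start and nearer to that of Y49F6B.2. Its region overlapped one in the thresholded list of replicate 2. The summit there lay 214 bp from the col-71 start, with a signal of 50.6, and was not a col-71 call. The summits at col-124 and col-119 lay in introns of qns-1 and pdzd-8 on the opposite strand. The summit at col-2 was 81 bp from the start of ndc-80, its divergent neighbour, and 605 bp from that of col-2. The summit of col-51, 949 bp into the gene, had 71.4 in replicate 1 and no overlapping region in replicate 2.

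Of the collagens with a known description, 5 had no summit within 1000 bp in the ranked list between replicates. col-10, an early-studied cuticle collagen, was 2896 bp from the nearest summit of that list and 10162 bp from the nearest conservative one. Replicate 2 alone ranked a weak summit nearer, 466 bp from the col-10 start with a signal of 5.55, and the ranked list of the pooled replicates had one at 475 bp with 17.8. In the ranked list between replicates, col-12 was 12306 bp from the nearest summit, col-13 was 15602 bp and col-14 was 5402 bp. In the conservative list they were 41563 bp, 44859 bp and 28894 bp away. col-99, a transmembrane collagen with 132 Gly-X-Y triplets, was 7076 bp away in that ranked list and 44328 bp in the conservative one. Replicate 2 ranked a weak summit, with a signal of 2.88, 1106 bp from the col-12 start and 4402 bp from that of col-13. In the ranked list of replicate 1 the nearest summit was 12859 bp from col-12 and 16155 bp from col-13.

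The col genes were also counted by the position of their neighbours, without the same count for all genes, so nothing particular to col genes is read from it. A ranked summit between replicates lay within 1000 bp of 12 of 54 col starts that face a divergent neighbour (22.2%), 28 of 72 with a tandem neighbour (38.9%) and 15 of 30 that lie inside another gene. The conservative calls had another order, with 3 of 54 divergent, 3 of 72 tandem and 1 of 30 inside another gene. With a col gene as neighbour the count was 16 of 45 (35.6%), against 39 of 111 without one (35.1%). By chromosome, the conservative list called 2 of 24 col genes on II, against 216 of 3449 of all genes, and 2 of 31 on V, against 236 of 4994. It called 1 of 41 on IV, against 251 of 3281, 1 of 27 on X, against 133 of 2731, 1 of 21 on I, against 255 of 2878, and 0 of 12 on III, against 240 of 2640.

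Genes that make, process and arrange the cuticle were counted by the same rule. Of 96 listed genes, 95 were found. The conservative list called 6 of them, the wider list also 6, the list of replicate 1 called 4 and that of replicate 2 called 3. Collagen synthesis and processing had the highest count, 3 of 20, with dpy-11, a thioredoxin-like protein needed for body shape, at 267 (120 in replicate 1 and 152 in replicate 2). The other 2 were pdi-2, a protein disulfide isomerase and subunit of prolyl hydroxylase, at 122, and pdi-1, at 121, both called in replicate 1 also. Other cuticle collagens had 1 of 20, dpy-14, at 108, which was called in the conservative list only. Cuticlins and other cuticle matrix had 1 of 13, cut-5, at 151, epidermal regulators had 1 of 17, lin-28, at 110, and moulting had 0 of 15 and basement membrane 0 of 10. Called in other lists only were cyn-9, a cyclophilin, at 69.7 in replicate 2, and sma-2, a Smad of the body-size pathway, at 122 in the wider list and 89.4 in replicate 1. The share of all genes called was 6.66% in the conservative list, 7.28% in the wider list, 5.39% in replicate 1 and 4.43% in replicate 2, and nothing particular to the lists is read from counts this small.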

How the data were processed

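RBM-26 binding was read from ChIP-seq peak lists of 2 biological replicates of whole young adult worms. The authors deposited peak lists on ce11, per the labels. Aligner, peak caller and read depth: not given in the sources used here. The signal of each peak is the authors' deposited value, on a scale that is not stated. The deposited −log10 global IDR of the ranked lists was used for the stricter thresholds.

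Overlapping rows were merged to regions that kept the summit and signal of the highest row, on the 6 nuclear chromosomes. Starts and ends came from the Ensembl 115 annotation of WBcel235. No deposited interval ran past the end of a chromosome of the RefSeq genome WBcel235. The col genes, the cuticle lists and the measures were chosen with earlier results of these data known. Binning by coding GC, the uniqueness of 36-base words, region widths and the position of Gly-X-Y codons were added after the data were seen. Named genes were those called in any thresholded list, those with a conservative summit inside or within 500 bp of an end, the 10 others of highest ranked signal and 6 known collagens. col-94, col-17 and col-135 fall outside it and were named after their values were seen. With 1 group and linked genes, no test was run: shares are set beside the share of all protein-coding genes, and Wilson intervals cover counting error only. Scripts were tested on simulated data. Python 3.11.15, numpy 2.4.6, scipy 1.17.1 and matplotlib 3.10.9 were used. Gly-X-Y triplets were counted in the annotated coding sequence read from the genome.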

Additional observations from a re-analysis of the deposited data

How the results depend on the processing

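The number of called col genes, 7 in the conservative list, was 2 to 10 when either replicate's own list was used, 3 at a global IDR of 0.001 or less, 1 among the 500 regions of highest signal and 50 in the ranked list between replicates. It was 0 when the summit had to lie within 250 bp and 4 within 500 bp. Of all 19973 protein-coding genes, 6045 were called in the ranked list between replicates. The median distance of 21514 bp was 15794 bp in the wider list, 22920 to 27556 bp in the replicates' own lists, 35254 bp at the stricter IDR, 77788 bp among the 500 regions and 3047 bp in the ranked list. The 55 col genes with a ranked summit within 1000 bp became 27 within 500 bp and 7 within 250 bp. At the stricter IDR, among the 500 regions and at the shorter distances, values for all genes are not given. Nothing particular to col genes is read from those settings. The median signal of 155 was 111 in the wider list and 64.6 in replicate 1 and 105 in replicate 2, in the replicates' own lists, which have their own scales. The 3 called regions found in both replicates' thresholded lists became 7 against their ranked lists. Over these and the counts of the cuticle lists, 30 values stayed within the limit set for no change and 22 moved. For counts the limit was a fixed ratio, under which 7 against 10 was no change. For the medians it was the standard deviation between the replicates' own lists, 3278 bp for distance and 28.9 for signal. The 30 include the moulting and basement membrane lists, which had 0 calls in every setting. The values of all these settings carry no sign. The side of the background on which the col share lay did turn between replicates, at 6.41%, against 5.39%, in replicate 1 and 1.28%, against 4.43%, in replicate 2. The causes were not tested, and the depth of either library is unknown.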
